A study of Mus musculus with 9 samples.

Results

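Expression of 10 genes that encode enzymes of sphingolipid and ceramide metabolism was followed in dendritic cells (DCs) stimulated with LPS or IFN-β. The genes were taken by symbol from the 55471 genes of the deposited counts and are *Sptlc1*, *Sptlc2*, *Cers2*, *Cers5*, *Cers6*, *Degs1*, *Sgms1*, *Sgms2*, *Asah1* and *Sphk1*. All 10 passed the filter on low counts, as did 16260 genes in all.

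The DCs were grown with 20 ng/mL GM-CSF from the bone marrow of wild-type C57BL/6 mice, females of 8 to 20 weeks per the study's methods. They were left unstimulated, activated with 100 ng/mL LPS or treated with 1000 U/mL IFN-β for 6 h, and RNA was sequenced from 3 libraries per condition, labelled A, B and C. LPS comes from the bacterial envelope and is sensed through a Toll-like receptor, whereas IFN-β is an antiviral cytokine. The labels do not say whether the 3 libraries of a condition came from separate cultures or animals, so p-values measure the spread between these libraries, which may be technical.

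Sphingolipids are built on a sphingoid base that serine palmitoyltransferase makes from serine and palmitoyl-CoA. Ceramide synthases attach a fatty acid to this base, a desaturase completes ceramide, and sphingomyelin synthases and other enzymes turn ceramide into the complex sphingolipids of the membrane. Ceramidases release sphingosine again, and sphingosine kinases convert it to sphingosine 1-phosphate, a signaling lipid that guides the movement of immune cells.

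The libraries held 33425803 to 43735199 gene counts each, and the lowest count of any of the 10 genes was 213. Expression is given as CPM, the counts of a gene relative to its library size after scaling by TMM factors, which correct for differences in composition between libraries. All 7 DC markers on a list (*Itgax*, *Cd74*, *H2-Aa*, *H2-Ab1*, *Flt3*, *Zbtb46* and *Csf2rb*) were expressed, with summed levels of 7192 to 9662 CPM. The 6 macrophage markers summed to 1550 to 2426 CPM and the 7 neutrophil markers to 8.98 to 23.4 CPM, and 5 T, B and NK cell markers stayed at or below 0.283 CPM in sum. In bulk RNA, fewer cells of a type and less RNA per cell cannot be told apart.

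To compare how the stimuli changed these enzymes, LPS-activated and IFN-β-treated DCs were each compared with unstimulated DCs and with each other in 1 edgeR model, in which the difference between the stimuli equals the difference between their responses. LPS and IFN-β share the unstimulated libraries. LPS changed 8 of the 10 genes, 3 higher (*Sptlc2*, *Cers6* and *Sgms2*) and 5 lower (*Cers2*, *Cers5*, *Degs1*, *Sgms1* and *Asah1*), where 68.2% of all tested genes were called, 32.8% higher and 35.4% lower. IFN-β changed 6, 4 higher (*Sptlc2*, *Cers6*, *Sgms2* and *Asah1*) and 2 lower (*Cers5* and *Sgms1*), where 46.9% of all tested genes were called, 23.6% higher and 23.3% lower. Between the stimuli, 7 of the 10 differed, 6 higher after IFN-β and 1 higher after LPS (*Cers6*), where 49.1% of all tested genes were called, 25.8% higher and 23.3% lower after IFN-β. The libraries of the compared conditions did not overlap for the same 8, 6 and 7 genes, where 72.4%, 58.1% and 56.8% of all tested genes did not overlap. The median log2 fold change of the 10 genes was -0.31 after LPS and 0.19 after IFN-β, and that of all tested genes was -0.04 and -0.02. Their median absolute change was 0.61 after LPS and 0.35 after IFN-β, against 0.65 and 0.35 over all tested genes.

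With scaling by library size only, the median of all tested genes shifted by -0.58 after LPS and by -0.31 after IFN-β, and by 0.27 between the stimuli. The split of the 10 genes then became 2 higher and 7 lower after LPS, 2 higher and 5 lower after IFN-β, and 8 higher and 1 lower after IFN-β than after LPS. Of all tested genes, 78%, 59.2% and 55.5% were then called, and 21.9%, 22.3% and 77.9% of these calls were higher. Directions below are those under TMM scaling, and reversals under library-size scaling are given beside the gene. The plot of the levels by library shows each gene in the 9 libraries.

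**Figure D1:**
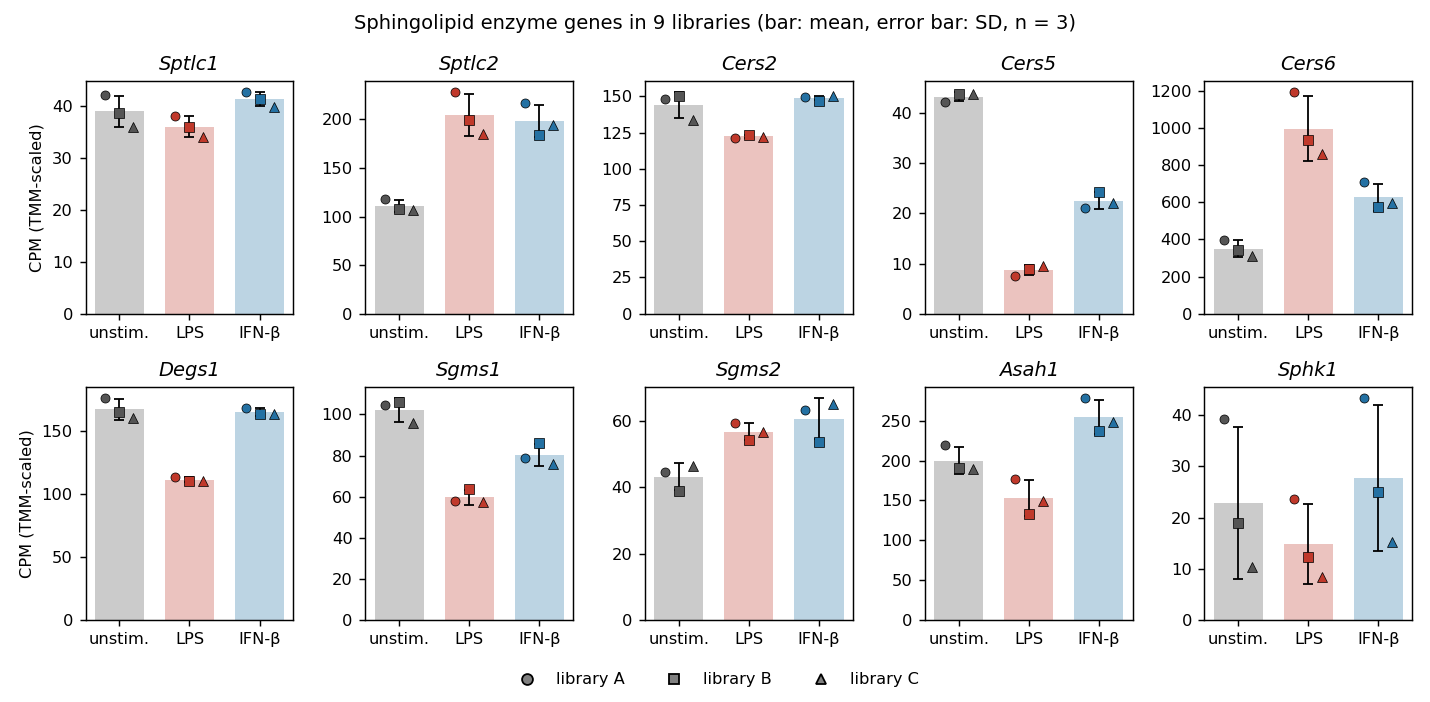
Expression of the 10 enzyme genes in CPM (vertical axes start at 0) in unstimulated, LPS-activated and IFN-β-treated DCs. Bars are means, error bars are SD (n = 3) and symbols mark libraries A, B and C. *Cers6* has its highest values after LPS, *Cers5* its lowest, and *Sphk1* varies more between libraries of a condition than between conditions.

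The first enzyme of the pathway, serine palmitoyltransferase, is a complex in which the *Sptlc1* and *Sptlc2* products form the catalytic core. *Sptlc2* (chr12:87305058-87388355, minus strand, GRCm38) was at 118, 108 and 107 CPM in unstimulated libraries A, B and C, at 228, 199.8 and 185 CPM after LPS and at 217, 184 and 194 CPM after IFN-β. Every stimulated library lay above every unstimulated library, and the ranges of the stimuli overlapped. The log2 fold change was 0.88 after LPS (standard error 0.09, edgeR adjusted p = 8.6e-06) and 0.84 after IFN-β (standard error 0.09, edgeR adjusted p = 4.7e-05). The stimuli did not differ in *Sptlc2* beyond the spread, with a difference of -0.04 on the log2 scale (standard error 0.09, edgeR adjusted p = 0.726) that became 0.24 with library-size scaling.

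*Sptlc1* (chr13:53332748-53377397, minus strand) was at 42.2, 38.7 and 36.0 CPM without stimulation, 38.0, 36.0 and 34.1 CPM after LPS and 42.7, 41.4 and 39.9 CPM after IFN-β. Each stimulated range overlapped the unstimulated range. Its log2 fold change was -0.11 after LPS (standard error 0.07, edgeR adjusted p = 0.198) and 0.08 after IFN-β (standard error 0.07, edgeR adjusted p = 0.374), and passed the threshold in neither. With library-size scaling both were called lower, at -0.69 after LPS (edgeR adjusted p = 2.2e-06) and -0.22 after IFN-β (edgeR adjusted p = 0.0144), and with upper-quartile factors the value after LPS was called too (-0.20, edgeR adjusted p = 0.0172). The 3 IFN-β libraries lay above the 3 LPS libraries, by 0.20 on the log2 scale (standard error 0.07, edgeR adjusted p = 0.0469), a call that was lost with DESeq2 (adjusted p = 0.125) and without the low-count filter (adjusted p = 0.0748). Without LPS library C this difference was 0.15 (edgeR adjusted p = 0.16), and the call was also lost when unstimulated library B, LPS library B or any 1 of the 3 IFN-β libraries was left out.

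Because both genes are measured in the same library, their ratio does not depend on scaling. The log2 ratio of *Sptlc1* to *Sptlc2* counts was -1.51 ± 0.05 in unstimulated DCs, -2.50 ± 0.07 after LPS and -2.26 ± 0.10 after IFN-β (SD, n = 3), so that the ratio fell 1.99-fold after LPS and 1.68-fold after IFN-β. Neither stimulated range overlapped the unstimulated one (two-sided exact permutation test, p = 0.1, which is the minimum for 3 libraries against 3, and 0.129 after Benjamini-Hochberg adjustment over the 18 ratio tests). No ratio test could therefore pass 0.05.

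Ceramide synthases differ in the acyl chains they prefer: the *Cers2* product favours very-long-chain fatty acids and the *Cers5* and *Cers6* products favour palmitoyl chains. The 3 genes moved in different ways. *Cers6* (chr2:68861441-69114282, plus strand) was at 399, 342 and 309.8 CPM without stimulation, at 1194, 936 and 861 CPM after LPS and at 711, 576 and 598 CPM after IFN-β. The 3 conditions did not overlap, with LPS-activated DCs highest and unstimulated DCs lowest. In log2 terms the change was 1.51 after LPS (standard error 0.14, edgeR adjusted p = 4.0e-06), which is 2.85-fold, and 0.84 after IFN-β (standard error 0.14, edgeR adjusted p = 6.9e-04), which is 1.79-fold. IFN-β-treated DCs had less *Cers6* than LPS-activated DCs, by -0.67 on the log2 scale (standard error 0.14, edgeR adjusted p = 0.00259).

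*Cers5* (chr15:99734881-99772885, minus strand), a paralog with a similar acyl preference, went the other way. It was at 42.2, 43.9 and 43.7 CPM without stimulation, at 7.54, 8.83 and 9.55 CPM after LPS and at 21.1, 24.3 and 22.1 CPM after IFN-β. Again no condition overlapped another, now with LPS-activated DCs lowest. On the log2 scale, the fold change was -2.32 after LPS (standard error 0.10, edgeR adjusted p = 1.2e-08), a 5.0-fold decrease, and -0.94 after IFN-β (standard error 0.09, edgeR adjusted p = 1.7e-05), a 1.92-fold decrease. The fall was larger after LPS, by 1.38 on the log2 scale (standard error 0.09, edgeR adjusted p = 9.9e-07). Of the 10 genes, *Cers6* had the largest rise and *Cers5* the largest fall after LPS.

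*Cers2* (chr3:95314791-95323599, plus strand) was at 148, 150.2 and 133 CPM without stimulation, at 121, 124 and 122 CPM after LPS and at 149, 147 and 150.1 CPM after IFN-β. All LPS libraries were below all others, and IFN-β and unstimulated DCs overlapped. The log2 fold change was -0.23 after LPS (standard error 0.06, edgeR adjusted p = 0.0058) and 0.05 after IFN-β (standard error 0.06, edgeR adjusted p = 0.544), which became -0.26 with library-size scaling (edgeR adjusted p = 0.00486). The difference between the stimuli was 0.28 (standard error 0.06, edgeR adjusted p = 0.00307). Its exons overlap those of *Setdb1* over 75 bases and of an antisense gene over 144 bases on the other strand, and the strand setting of the counting is not given in the sources used here, so a part of these counts could belong to either gene.

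The promoter windows of *Cers6* and *Cers5* are shown because these paralogs had the largest opposite changes. Each is 300 bases, from 250 before to 50 after the RefSeq start on GRCm38.p6, written 5′ to 3′ on the gene's own strand, at chr2:68861191-68861490 (plus strand) for *Cers6* and chr15:99772466-99772765 (minus strand) for *Cers5*. Capitals mark a match to the E-box CACGTG, which starts at position -22 of the *Cers6* start.
Cers6: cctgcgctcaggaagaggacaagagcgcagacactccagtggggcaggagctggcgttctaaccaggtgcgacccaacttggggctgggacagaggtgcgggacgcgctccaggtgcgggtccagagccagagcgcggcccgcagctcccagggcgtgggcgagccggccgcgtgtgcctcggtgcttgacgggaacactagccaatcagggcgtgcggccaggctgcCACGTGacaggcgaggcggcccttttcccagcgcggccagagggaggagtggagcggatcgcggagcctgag
Cers5: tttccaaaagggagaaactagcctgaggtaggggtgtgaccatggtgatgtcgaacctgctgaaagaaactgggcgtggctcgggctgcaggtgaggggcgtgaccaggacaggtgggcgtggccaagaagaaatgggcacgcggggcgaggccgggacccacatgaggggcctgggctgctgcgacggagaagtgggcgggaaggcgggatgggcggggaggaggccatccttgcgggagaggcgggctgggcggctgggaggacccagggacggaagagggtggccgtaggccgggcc
Both strands were searched for the E-box CACGTG, the core of the interferon-stimulated response element (GAAA, any 2 bases, GAAA) and the κB motif, and the *Cers5* window held none of them. The E-box was in a window of 5 of the 9 enzyme genes with RefSeq windows (*Cers2*, *Cers6*, *Degs1*, *Sgms2* and *Sphk1*), the κB motif in 2 (*Degs1* and *Sphk1*) and the response element core in 0. Some of these genes have several windows, up to 6 for *Sgms2* and 5 for *Sphk1*, and a gene counts if any 1 of its windows holds the motif. In the wider list of sphingolipid genes described below, the E-box was in 5 of 44 genes with windows. Of all 27025 genes with windows, 8.09% held the E-box, 9.55% the κB motif and 3.99% the response element core. A match describes the letters of these windows and is not evidence of binding.

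Within a library, the log2 ratio of *Cers6* to *Cers5* counts rose from 3.01 ± 0.21 in unstimulated DCs to 6.84 ± 0.42 after LPS and 4.80 ± 0.26 after IFN-β (SD, n = 3), a 14.2-fold and a 3.46-fold higher ratio. The ranges of the 3 conditions did not overlap (two-sided exact permutation test, p = 0.1 for every pair, the minimum). To set levels of different genes side by side, CPM was divided by the length of the merged exons in kilobases (kb), which takes no account of which isoforms were made. On this scale *Cers6* made up 43.3 ± 2.56% of the sum of *Cers2*, *Cers5* and *Cers6* in unstimulated DCs, 75.6 ± 3.32% after LPS and 60.1 ± 2.80% after IFN-β (SD, n = 3). *Cers5* went from 13.5 ± 1.26% to 1.68 ± 0.393% after LPS and 5.43 ± 0.727% after IFN-β, and *Cers2* from 43.1 ± 1.58% to 22.7 ± 2.93% and 34.5 ± 2.13%. The summed level of the 3 genes was 90.8 ± 6.84 CPM per kb without stimulation, 148 ± 19.2 after LPS and 118 ± 7.97 after IFN-β (two-sided exact permutation test, p = 0.1 for either stimulus, the minimum). The other ceramide synthases were barely detected: *Cers1* had 0 counts in every library, *Cers3* reached 0.304 CPM and *Cers4* averaged at most 0.268 CPM in any condition.

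**Figure D2:**
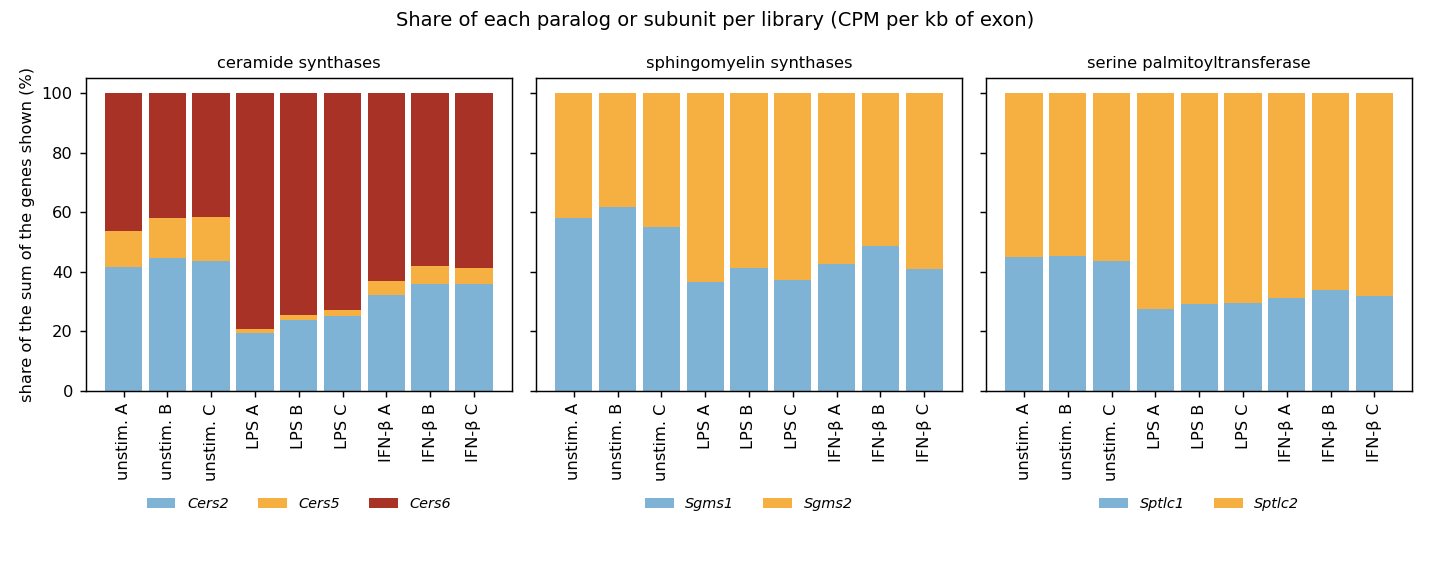
Share of each gene (percent, vertical axis) in the summed CPM per kb of exon of the ceramide synthases, sphingomyelin synthases and serine palmitoyltransferase core subunits, for each of the 9 libraries. The *Cers6* share is 73.0 to 79.3% in the LPS libraries and 41.8 to 46.3% in the unstimulated libraries, and the *Sgms1* and *Sptlc1* shares are lower in every stimulated library than in any unstimulated library.

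*Degs1* encodes the desaturase that introduces the double bond of ceramide. The gene (chr1:182275772-182282804, minus strand) was at 176, 165 and 161 CPM without stimulation, at 114, 111 and 110.5 CPM after LPS and at 169, 163 and 164 CPM after IFN-β. The LPS libraries were below all others and closely spaced. In log2 terms the change was -0.58 after LPS (standard error 0.06, edgeR adjusted p = 5.9e-06) and -0.02 after IFN-β (standard error 0.06, edgeR adjusted p = 0.836), which became -0.32 with library-size scaling (edgeR adjusted p = 4.6e-04). The responses differed by 0.57 (standard error 0.06, edgeR adjusted p = 1.9e-05), and within the letters by 0.57, 0.56 and 0.57.

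The sphingomyelin synthases transfer phosphocholine to ceramide, the *Sgms1* product in the Golgi and the *Sgms2* product also at the plasma membrane. *Sgms1* (chr19:32122727-32389714, minus strand) was at 105, 106 and 95.7 CPM without stimulation, at 58.0, 63.9 and 57.2 CPM after LPS and at 79.0, 86.3 and 75.9 CPM after IFN-β. No condition overlapped another, with unstimulated DCs highest and LPS lowest. On the log2 scale, the fold change was -0.78 after LPS (standard error 0.07, edgeR adjusted p = 4.3e-06) and -0.35 after IFN-β (standard error 0.07, edgeR adjusted p = 0.00295), and the responses differed by 0.43 (standard error 0.07, edgeR adjusted p = 7.2e-04).

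*Sgms2* (chr3:131318985-131491411, minus strand) rose with both stimuli under TMM scaling, although with library-size scaling its change after LPS reversed to -0.19 (edgeR adjusted p = 0.0611) and that after IFN-β was 0.18 (edgeR adjusted p = 0.0911). It was at 44.5, 38.8 and 46.4 CPM without stimulation, at 59.4, 54.1 and 56.8 CPM after LPS and at 63.3, 53.6 and 65.1 CPM after IFN-β. Both stimulated ranges lay above the unstimulated range and overlapped each other. The log2 fold change was 0.39 after LPS (standard error 0.09, edgeR adjusted p = 0.0028) and 0.49 after IFN-β (standard error 0.09, edgeR adjusted p = 0.00137), with a difference of 0.10 (standard error 0.09, edgeR adjusted p = 0.414).

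On the scaling-free ratio, *Sgms1* against *Sgms2* counts stood at 1.24 ± 0.21 in log2 without stimulation, 0.07 ± 0.15 after LPS and 0.41 ± 0.25 after IFN-β (SD, n = 3). The ratio was 2.25-fold lower after LPS and 1.78-fold lower after IFN-β, with no overlap (two-sided exact permutation test, p = 0.1 for both, the minimum), and the stimuli overlapped (exact permutation test, p = 0.2). Per kb, *Sgms1* made up 58.3 ± 3.45% of the pair without stimulation, 38.3 ± 2.42% after LPS and 44.0 ± 4.21% after IFN-β. The pair's summed level was 16.6 ± 0.393 CPM per kb without stimulation, 14.8 ± 0.249 after LPS and 17.4 ± 0.497 after IFN-β.

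*Asah1*, which encodes the acid ceramidase of lysosomes, was the gene among the 10 that passed the threshold in opposite directions. The gene (chr8:41340197-41374773, minus strand) was at 219, 191 and 189 CPM without stimulation, at 177, 133 and 149 CPM after LPS and at 278, 237 and 248 CPM after IFN-β. No condition overlapped another. In log2 terms the change was -0.38 after LPS (standard error 0.11, edgeR adjusted p = 0.00964) and 0.35 after IFN-β (standard error 0.11, edgeR adjusted p = 0.0235), and the stimuli differed by 0.73 (standard error 0.11, edgeR adjusted p = 2.9e-04). Within the letters A, B and C the differences between the stimuli were 0.65, 0.83 and 0.74 on the log2 scale. The rise after IFN-β was the less stable change: it became 0.04 with library-size scaling (edgeR adjusted p = 0.684), and the call was lost without unstimulated library B (adjusted p = 0.0849), unstimulated library C (adjusted p = 0.0712) or IFN-β library A (adjusted p = 0.0952).

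*Sphk1* encodes a sphingosine kinase that produces sphingosine 1-phosphate. The gene (chr11:116530925-116536674, plus strand) was at 39.2, 18.9 and 10.2 CPM without stimulation, at 23.6, 12.3 and 8.45 CPM after LPS and at 43.3, 24.9 and 15.2 CPM after IFN-β. Library A was highest and library C lowest in every condition, and the conditions overlapped. Within a condition the highest library was 2.80 to 3.83 times the lowest, and the within-group SD of 0.81 on the log2 scale was larger than that of 99.7% of the tested genes (median 0.14). *Sphk1* did not pass the threshold in any comparison: the log2 fold change was -0.63 after LPS (standard error 0.52, edgeR adjusted p = 0.307), 0.29 after IFN-β (standard error 0.51, edgeR adjusted p = 0.669) and 0.92 between the stimuli (standard error 0.52, edgeR adjusted p = 0.171).

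When the letters entered the model as a replicate block, all 3 comparisons of *Sphk1* passed: -0.57 after LPS (standard error 0.09, edgeR adjusted p = 5.1e-05), 0.35 after IFN-β (standard error 0.08, edgeR adjusted p = 0.00281) and 0.92 between the stimuli (standard error 0.09, edgeR adjusted p = 8.3e-07). Under each letter the order was IFN-β, unstimulated, LPS from highest to lowest. The block brought the number of the 10 genes called to 9 after LPS, 7 after IFN-β and 8 between the stimuli, where 73.5%, 56.3% and 58% of all tested genes were called, and *Sphk1* was the gene added each time. Marker levels also differed by letter. The neutrophil markers summed to 20.98, 9.48 and 11.4 CPM in unstimulated libraries A, B and C, 23.4, 12.5 and 15.5 CPM after LPS and 17.3, 8.98 and 9.42 CPM after IFN-β. The macrophage markers summed to 1928, 1552 and 1550 CPM, 2181, 1760 and 1703 CPM, and 2426, 2096 and 2251 CPM in the same order. The 4 mast cell or basophil markers, of which *Kit* alone was tested, ran the other way, lowest in library A and highest in library C, with sums of 6.26, 9.14 and 9.95 CPM without stimulation, 3.18, 6.96 and 8.08 CPM after LPS and 2.20, 4.195 and 4.45 CPM after IFN-β. Under each letter these sums were also lower after LPS and after IFN-β than without stimulation. Their ranges overlapped the unstimulated range for LPS and not for IFN-β. The part of these cells in the *Sphk1* values was not tested. An antisense gene overlaps 192 bases, or 4.02%, of the *Sphk1* exons.

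**Figure D3:**
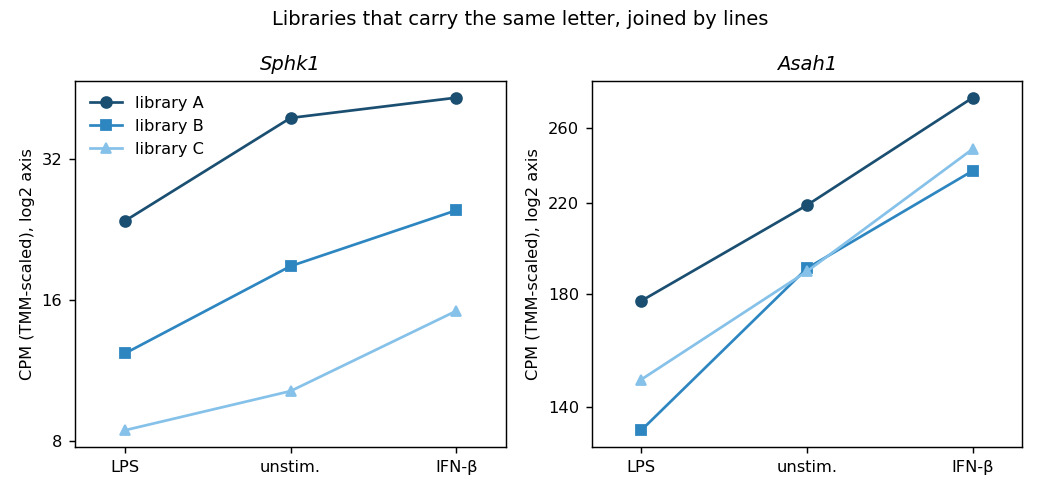
CPM (log2 axis) of *Sphk1* and *Asah1* in LPS-activated, unstimulated and IFN-β-treated DCs, with lines joining libraries of the same letter. Each *Sphk1* line rises from LPS to unstimulated to IFN-β, but the lines start between 8.45 and 23.6 CPM, whereas the *Asah1* lines lie close together.

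**Figure D4:**
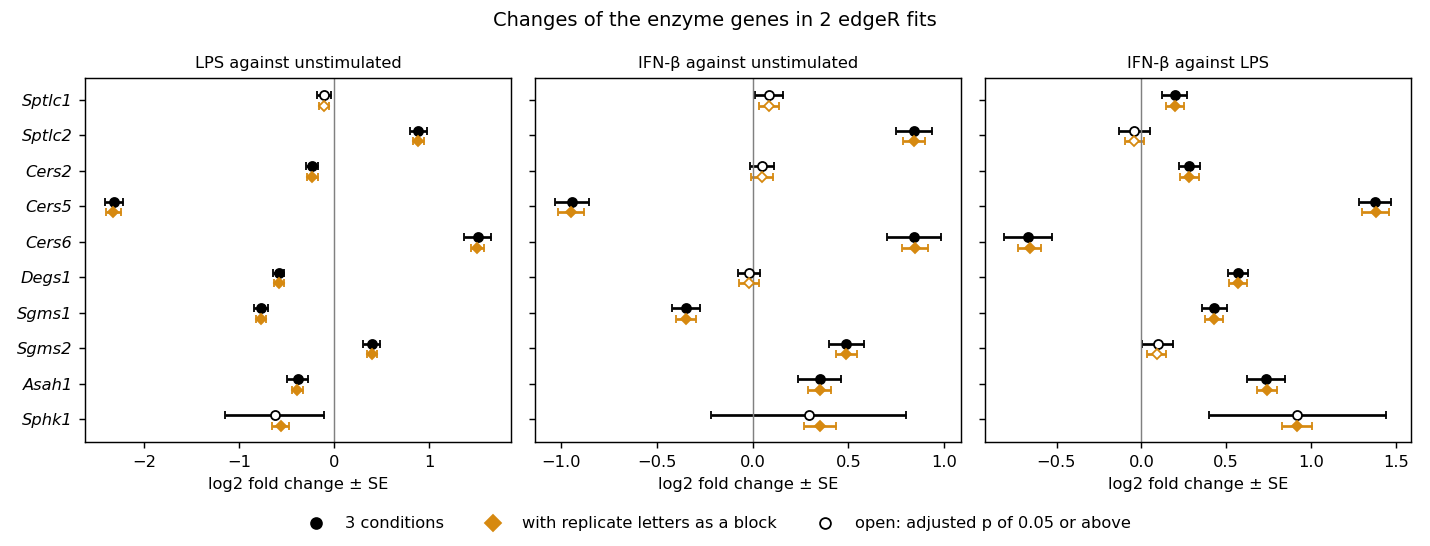
Log2 fold change (horizontal axis, error bars are standard errors) of the 10 genes in the model of 3 conditions (circles) and with the replicate letters as a block (diamonds), for 3 comparisons. Open symbols have an adjusted p of 0.05 or above, and *Sphk1* is the gene whose symbols turn from open to filled with the block.

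*Cers5*, *Cers6* and *Sgms1* changed more after LPS than after IFN-β by the test of the difference, and *Sptlc2* and *Sgms2* showed no difference past the threshold. *Cers2* and *Degs1* passed the threshold after LPS and not after IFN-β, and for both the difference between the responses passed as well.

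Per kb of exon, the order of levels also shifted. In unstimulated DCs *Degs1* (64.6 CPM per kb) and *Asah1* (58.9) were highest and did not differ beyond their ranges, followed by *Cers6* (39.5) and *Cers2* (39.1), which overlapped too. Lower down came *Sptlc2* (13.7), *Cers5* (12.2), *Sptlc1* (10.96), *Sgms1* (9.69), *Sgms2* (6.94) and *Sphk1* (4.78), the last 2 overlapping. With LPS, *Cers6* was highest at 112 CPM per kb, with no library overlapping *Asah1* (45.1) or *Degs1* (43.1), and *Cers5* was last at 2.44, overlapping *Sphk1* (3.1). With IFN-β, *Asah1* (75.0) and *Cers6* (70.8) overlapped at the top, *Cers6* also overlapped *Degs1* (63.9), and *Cers5* (6.35) and *Sphk1* (5.83) overlapped at the bottom.

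A list of 50 other genes of sphingolipid metabolism placed these enzymes in the wider pathway, and 40 of them passed the filter on low counts. LPS changed 29 of the 40, 12 higher and 17 lower, IFN-β changed 18, 12 higher and 6 lower, and 26 differed between the stimuli, 21 of them higher after IFN-β. Over all tested genes 68.2% were called after LPS (32.8% higher, 35.4% lower) and 46.9% after IFN-β (23.6% higher, 23.3% lower). Between the stimuli 49.1% were called, 25.8% higher and 23.3% lower after IFN-β. The total counts after LPS and after IFN-β therefore lie close to the background. Their median log2 fold change was -0.15 after LPS, 0.00 after IFN-β and 0.31 between the stimuli, against -0.04, -0.02 and 0.02 over all tested genes. Under the replicate block the counts were 33, 27 and 32, where 73.5%, 56.3% and 58% of all tested genes were called.

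Among partners of serine palmitoyltransferase, 3 of 4 tested genes fell after LPS and 1 after IFN-β, where 35.4% and 23.3% of all tested genes fell. *Sptssa*, a small subunit that raises the activity of the enzyme, was at 23.3 ± 0.688 CPM without stimulation, 10.2 ± 1.51 after LPS and 19.6 ± 1.32 after IFN-β (SD, n = 3), with log2 fold changes of -1.19 (edgeR adjusted p = 2.4e-06) and -0.25 (edgeR adjusted p = 0.0695, and 0.0135 with the block). The latter was also called with library-size scaling (-0.55, edgeR adjusted p = 7.7e-04), upper-quartile factors (edgeR adjusted p = 0.0221) and the compared groups alone (edgeR adjusted p = 0.0224). Leaving out LPS library B or C gave a call too. *Ormdl3*, a member of the family that restrains the enzyme, fell with both, with -0.58 and -0.37, of which the latter missed the threshold without unstimulated library A (edgeR adjusted p = 0.0522). *Kdsr*, the reductase that acts after serine palmitoyltransferase, was at 18.1 ± 0.440, 5.32 ± 0.461 and 9.69 ± 0.337 CPM (SD, n = 3) in the same order and fell by 1.76 and by 0.90 on the log2 scale (edgeR adjusted p = 3.2e-08 and 1.2e-05).

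All 3 genes listed under ceramide transport and phosphorylation (*Cerk*, *Cptp* and *Cert1*) were called after LPS, where 68.2% of all tested genes were called. *Cerk*, which encodes ceramide kinase, was at 196, 187 and 162 CPM in unstimulated libraries A, B and C, at 30.3, 36.9 and 37.3 CPM after LPS and at 178, 179 and 168 CPM after IFN-β. Its log2 fold change was -2.38 after LPS (standard error 0.10, edgeR adjusted p = 1.3e-08) and -0.05 after IFN-β (standard error 0.09, edgeR adjusted p = 0.674), a difference of 2.33 (edgeR adjusted p = 4.8e-08). With library-size scaling the *Cerk* value after IFN-β was -0.36 and passed the threshold (edgeR adjusted p = 0.0103). *Cptp*, the transfer protein of ceramide 1-phosphate, the product of that kinase, rose by 1.45 after LPS and by 0.26 after IFN-β, of which the latter reversed to -0.05 with library-size scaling. *Cert1*, which carries ceramide to the Golgi, had log2 fold changes of 0.27 after LPS (edgeR adjusted p = 0.0489), which reversed to -0.32 with library-size scaling, and 0.49 after IFN-β, which became 0.19 with that scaling (edgeR adjusted p = 0.106). The *Cert1* call after LPS held in 3 of 9 fits with 1 library left out, and was lost without any 1 unstimulated library, LPS library A, LPS library C or IFN-β library B (0.16 without LPS library A).

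In the sphingomyelin cycle, 4 of 5 tested genes fell after LPS and 2 after IFN-β, where 35.4% and 23.3% of all tested genes fell. None rose in this fit. *Samd8*, a relative of the sphingomyelin synthases named here after its values were seen, passed the threshold after neither stimulus. With the replicate block it was called lower after LPS (-0.24, edgeR adjusted p = 0.00216) and higher after IFN-β (0.19, edgeR adjusted p = 0.0132). *Smpd1*, acid sphingomyelinase, fell from 17.1 ± 2.33 to 8.29 ± 1.79 CPM after LPS (SD, n = 3, log2 fold change -1.04, edgeR adjusted p = 1.3e-04), and after IFN-β it was at 13.2 ± 1.12 CPM (-0.37, edgeR adjusted p = 0.0675, and 0.00181 with the block). With library-size scaling this value was -0.67 (edgeR adjusted p = 0.0015). It was also called with upper-quartile factors (edgeR adjusted p = 0.0229), without the low-count filter (edgeR adjusted p = 0.0191) and with the compared groups alone (edgeR adjusted p = 0.0256). Leaving out unstimulated library C, LPS library A or LPS library C gave a call too. *Smpd2*, a neutral sphingomyelinase gene that shares 20.3% of its exon length with *Mical1* on the other strand, had -1.61 and -0.50. Among ceramidases other than *Asah1*, *Asah2*, the neutral ceramidase, rose from 14.7 ± 2.62 to 58.1 ± 4.88 CPM after LPS and 61.5 ± 5.82 after IFN-β (SD, n = 3). Its log2 fold changes were 1.98 (edgeR adjusted p = 2.0e-07) and 2.07 (edgeR adjusted p = 1.4e-06), with a difference of 0.08 (standard error 0.12, edgeR adjusted p = 0.593) that became 0.36 with library-size scaling (edgeR adjusted p = 0.00954). *Acer3*, an alkaline ceramidase, rose after IFN-β by 0.81, more than after LPS (0.14), by the test of the difference (0.67, edgeR adjusted p = 0.00176), and its value after LPS became -0.45 with library-size scaling.

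Of 14 tested genes of glucosylceramide and glycosphingolipid metabolism, LPS changed 10 (4 higher, 6 lower) and IFN-β 7 (5 higher, 2 lower), which is near the 68.2% and 46.9% called over all tested genes. By direction, 32.8% of all tested genes were higher and 35.4% lower after LPS, and 23.6% and 23.3% after IFN-β. *St3gal5*, a sialyltransferase at the start of ganglioside synthesis, was at 41.3, 43.7 and 40.6 CPM without stimulation, at 276, 241 and 220.3 CPM after LPS and at 62.1, 62.4 and 61.3 CPM after IFN-β. It rose by 2.55 after LPS (edgeR adjusted p = 4.5e-09) and by 0.57 after IFN-β (edgeR adjusted p = 2.8e-04). *Ugcg*, glucosylceramide synthase, had log2 fold changes of 0.29 after LPS, which reversed to -0.30 with library-size scaling and lost its call without unstimulated library B, unstimulated library C or LPS library A (0.27, 0.25 and 0.21), and 0.48 after IFN-β, which became 0.18 with library-size scaling (edgeR adjusted p = 0.0821). Among degrading enzymes, the log2 fold changes after LPS and IFN-β were -1.72 and -0.16 for the galactosylceramidase gene *Galc* (edgeR adjusted p = 3.8e-08 and 0.138), -1.10 and -0.54 for the non-lysosomal glucosylceramidase gene *Gba2*, and 0.13 and 0.93 for the α-galactosidase gene *Gla* (edgeR adjusted p = 0.34 and 9.9e-05), of which the *Gla* value after LPS became -0.45 with library-size scaling. The *Galc* value after IFN-β passed the threshold with that scaling (-0.47, edgeR adjusted p = 0.00141) and with upper-quartile factors (-0.24, edgeR adjusted p = 0.0411).

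Downstream of *Sphk1*, *Sgpl1*, the lyase that ends sphingosine 1-phosphate, was at 363 ± 27.2 CPM without stimulation, 535 ± 29.2 after LPS and 526 ± 35.0 after IFN-β (SD, n = 3). It rose by 0.56 and by 0.54, where the change after LPS became -0.02 with library-size scaling. *Sphk2*, the other sphingosine kinase gene, rose by 0.67 and by 0.42 under TMM scaling, but with library-size scaling its values were 0.09 (edgeR adjusted p = 0.331) and 0.12 (edgeR adjusted p = 0.216) and neither passed. Its exons overlap those of *Dbp* and *Rpl18* on the other strand. The exporters of sphingosine 1-phosphate went in opposite directions after LPS at low levels: *Spns2* fell from 5.29 ± 1.03 to 1.0 ± 0.183 CPM (-2.39, edgeR adjusted p = 9.6e-06) and *Mfsd2b* rose from 1.29 ± 0.303 to 3.94 ± 0.383 CPM (1.61, edgeR adjusted p = 4.5e-05). With IFN-β both stayed near the unstimulated level, at 4.81 ± 1.33 and 1.28 ± 0.263 CPM.

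Of the 4 tested receptors of sphingosine 1-phosphate, 3 differed between the stimuli, where 49.1% of all tested genes were called. *S1pr3* was at 9.38, 9.34 and 10.7 CPM without stimulation, at 36.8, 47.7 and 50.8 CPM after LPS and at 10.8, 10.7 and 11.9 CPM after IFN-β, and rose after LPS by 2.20 (edgeR adjusted p = 7.4e-08) but had 0.18 after IFN-β (edgeR adjusted p = 0.238), a difference of -2.01 (edgeR adjusted p = 4.0e-07). *S1pr2* rose more after IFN-β, from 41.05 ± 6.67 to 111 ± 16.4 CPM (SD, n = 3, 1.43, edgeR adjusted p = 2.8e-05), than after LPS (0.40, edgeR adjusted p = 0.0307, reversed to -0.19 with library-size scaling), a difference of 1.03 (edgeR adjusted p = 1.7e-04). The *S1pr2* call after LPS was lost without unstimulated library B, unstimulated library C or LPS library A (0.35, 0.30 and 0.27). *S1pr1* fell after LPS from 2.27 ± 0.512 to 0.884 ± 0.147 CPM (-1.36, edgeR adjusted p = 2.4e-04) and was at 2.20 ± 0.254 CPM after IFN-β. *S1pr4* had -0.49 after LPS (edgeR adjusted p = 0.0559, 0.023 with the block, and 4.6e-04 with library-size scaling, at -1.07) and -0.18 after IFN-β. Its value after LPS was also called with upper-quartile factors, without the low-count filter and with at least 10 counts in every library (edgeR adjusted p = 0.0259, 0.0243 and 0.0474). Leaving out unstimulated library C or LPS library A gave a call too. *S1pr5* was not tested, with at most 1 count per library.

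**Figure D5:**
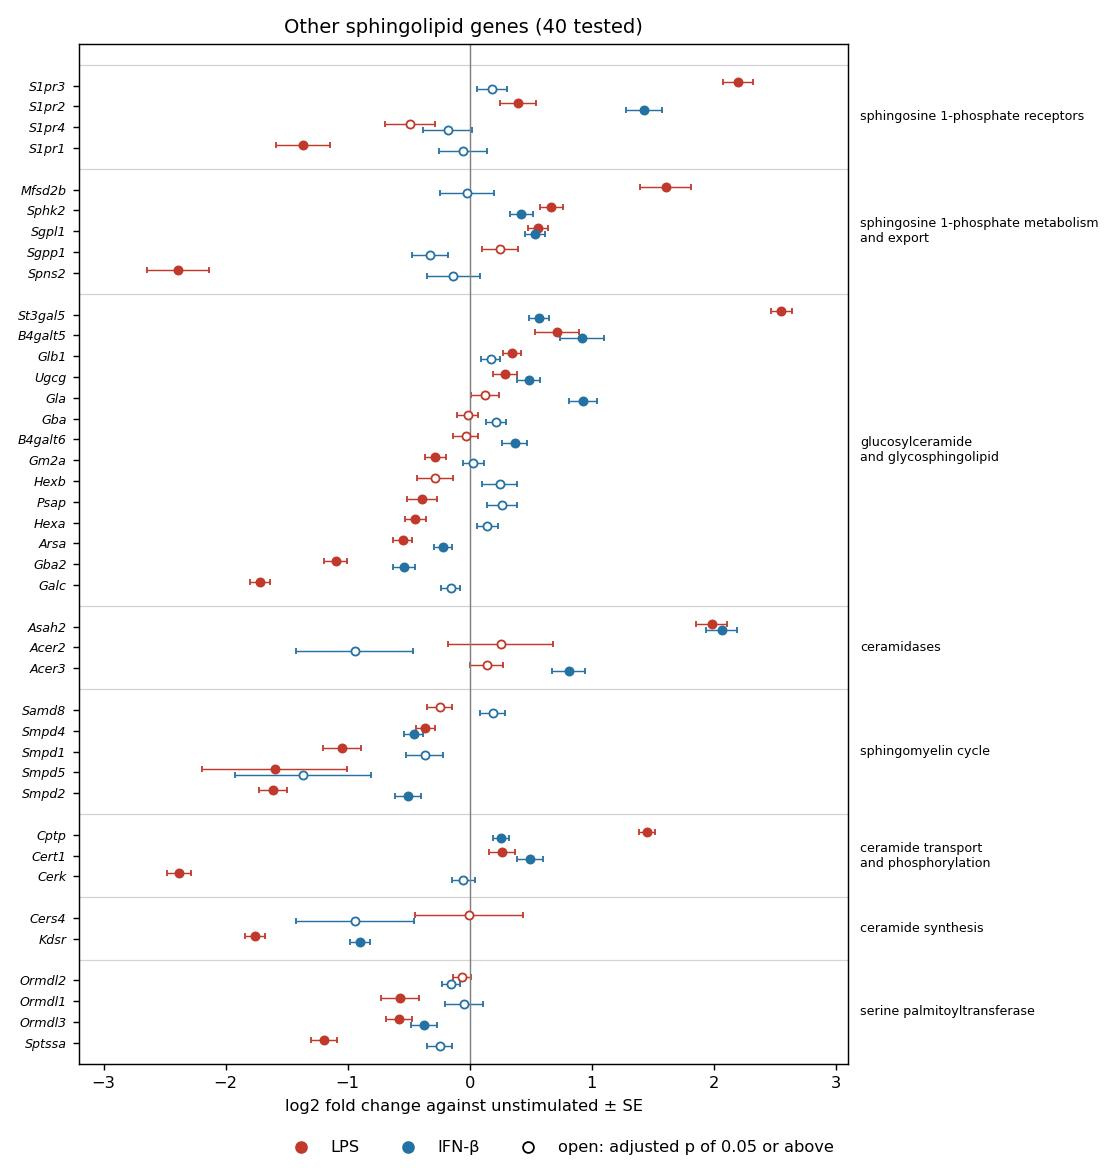
Log2 fold change against unstimulated DCs (horizontal axis, error bars are standard errors) of the 40 tested genes of the wider pathway list, grouped by role, after LPS in red and IFN-β in blue. Filled points have an adjusted p below 0.05, as for *St3gal5* at 2.55 and *Cerk* at -2.38 after LPS. With library-size scaling, followed here only for the genes named by rule, several rises after LPS turned negative. *Cert1* and *Ugcg* were then called lower, and *Sgpl1* and *S1pr2* were not called.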

How the data were processed

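RNA from the 9 libraries was depleted of ribosomal RNA and sequenced as paired ends. The authors trimmed the reads (Trim Galore 0.6.0), mapped them to mm10 with STAR and took the gene counts STAR makes from uniquely mapped reads on GENCODE M20. The submitters' processing notes give STAR 2.7.8a and the study's methods give another version. The authors deposited raw counts without normalization or filter. The strand setting is not given in the sources used here.

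The counts went into edgeR (version 4.0.16, with limma 3.58.1, under R 4.3.3) with TMM factors and quasi-likelihood F-tests, as in the study's methods, after filterByExpr and with 1 term per condition over 9 libraries. Benjamini-Hochberg adjustment ran over the 16260 tested genes, and a gene was called where its adjusted p-value was below 0.05. The standard error is the absolute log2 fold change over the square root of F. Ratios of counts took a pseudocount of 0.5. Coordinates and exon lengths are from GENCODE M21 on GRCm38, which held 55230 of the 55471 identifiers, and promoter windows are from RefSeq.

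The 10 genes and the lists were chosen with earlier results of these data known. Genes of the wider list were named by rule: for each role and comparison, the called gene with the largest rise and with the largest fall, and also all sphingosine 1-phosphate receptors, *Ugcg*, *Smpd1*, *Cerk*, *Sgpl1* and *Sphk2*. The labels do not say what the letters A, B and C mark. After subtracting condition means, the 9 pairs of libraries with the same letter had correlations across genes of 0.13 to 0.55, each above 0.1. The letters were therefore taken as pairing the libraries. The main fit and the permutation tests held no term for the letters, so their p-values leave this pairing out. A fit with the letters as a replicate block is given where it changes a call of the 10 genes or of a gene named by the rule above. The alternatives were DESeq2 1.42.0, library-size and upper-quartile scaling, no filter, at least 10 counts in every library, the compared groups alone, the replicate block, each library left out in turn, an adjusted p-value below 0.01, and a log2 fold change of size 1 or more. The number of libraries limits the precision, and no pair of replicates agreed within sampling noise.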

Additional observations from a re-analysis of the deposited data

How the results depend on the processing

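Of 480 values of the 10 genes under the 16 alternatives, 453 stayed on their side of the threshold. A further 13 lost the call, 10 gained one and 4 reversed. A change of sign was counted as a reversal only where the gene was called in the main fit or in the alternative. Uncalled values could therefore change sign within the 453, as *Sptlc2* did between the stimuli with 1 library left out (-0.12 to 0.03). By this count, 17 of 30 results were stable under every alternative. The ratios within libraries moved by less than 1 SD in all 144 values. This had to hold with 1 library left out, since dropping 1 of 3 libraries cannot move a mean by 1 SD. The mean of the differences within letters equals the main value by construction. Only a pseudocount of 5 in place of 0.5 could have moved a ratio further, so the count is no measure of stability. Also requiring a log2 fold change of size 1 or more left 2, 0 and 1 of the 10 genes called for LPS, IFN-β and the difference between them, 15, 2 and 10 of the wider list, and 5429, 2052 and 2834 of all genes.

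Scaling by library size only reversed *Sgms2* after LPS (-0.19), *Sptlc1* (-0.22) and *Cers2* (-0.26) after IFN-β and *Sptlc2* between the stimuli (0.24). It brought calls to *Sptlc1* (-0.69) and *Sphk1* (-1.21) after LPS, *Degs1* after IFN-β (-0.32) and *Sgms2* between the stimuli (0.37), and took them from *Sgms2* (0.18) and *Asah1* (0.044) after IFN-β. In the wider list, reversals were followed only for the genes named by the rule above. Among those it reversed *Cert1* (-0.32), *Acer3* (-0.45), *Ugcg* (-0.30), *Gla* (-0.45), *Sgpl1* (-0.021) and *S1pr2* (-0.19) after LPS. It also reversed *Cptp* (-0.050) after IFN-β and *Sgpl1* (0.25) between the stimuli. The reversed values of *Sgpl1* and *S1pr2* after LPS and of *Cptp* after IFN-β did not pass the threshold. Of all genes called, it left 21.9% higher after LPS, 22.3% after IFN-β and 77.9% between the stimuli.

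Upper-quartile factors brought a call to *Sptlc1* after LPS (-0.20). Without the low-count filter, *Sphk1* was called after LPS (-0.65) and between the stimuli (0.94), and *Sptlc1* lost its call between the stimuli (0.22), as it did with DESeq2 (0.17). The replicate block brought calls to *Sphk1* after LPS (-0.57), after IFN-β (0.35) and between the stimuli (0.92). It changed no other call of the 10 genes. Among the genes of the wider list named by the rule, the block brought calls between the stimuli to *Cert1* (0.23, edgeR adjusted p = 0.0126), *Ugcg* (0.20, edgeR adjusted p = 0.01) and *Sphk2* (-0.24, edgeR adjusted p = 0.00377). The causes were not tested.

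With 1 library left out, *Asah1* after IFN-β ranged from 0.27 to 0.42 and was called in 6 of 9 fits, and *Sptlc1* between the stimuli ranged from 0.15 to 0.23 and was called in 3 of 9. *Sphk1* ranged from -1.13 to 0.01 after LPS, from -0.19 to 0.93 after IFN-β and from 0.44 to 1.41 between the stimuli, never called.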

Other observations

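For the 3 of the 10 genes with the largest absolute difference between IFN-β and LPS, the tested genes with the most similar pattern over the 9 libraries were taken by Pearson's r of log2(CPM + 0.5), given as a description, with no p, since libraries of a condition are alike in many genes. *Cers5* was most like *Kcnab2* (r = 0.999), *Ncapd2* (r = 0.999) and *Zfp608* (r = 0.999), which had log2 fold changes of -2.47, -2.98 and -2.65 after LPS and -0.98, -1.13 and -1.04 after IFN-β. *Sphk1* was most like *Bhlhe40* (r = 0.984), *Hpgds* (r = 0.984) and *Cd109* (r = 0.980), which had -0.25, -1.48 and -0.41 after LPS and 0.08, -0.03 and 0.47 after IFN-β. *Asah1* was most like *Tnfrsf26* (r = 0.982), *4921536K21Rik* (r = 0.982) and *Fgd4* (r = 0.980), which had -0.96, -0.81 and -0.59 after LPS and 0.73, 0.60 and 0.64 after IFN-β.

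Of the 50 genes of the wider list, 10 had too few counts to be tested. They were *Sptlc3*, *Sptssb*, *Cers1*, *Cers3*, *Degs2*, *Smpd3*, *Acer1*, *Ugt8a*, *Sgpp2* and *S1pr5*. *Sptlc3*, *Cers1* and *Ugt8a* had 0 counts in every library. *Sptssb* had 0 counts in the 3 unstimulated libraries and 0.248, 0.291 and 0.369 CPM in LPS libraries A, B and C, and 2 counts in IFN-β library B, where 3 counts correspond to 0.0674 to 0.076 CPM in the unstimulated libraries.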
